A study of Mus musculus with 3 samples.

Results

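The integrin and laminin chain genes comprise 35 of the 31053 genes counted: 17 integrin alpha chains, 8 integrin beta chains and 10 laminin chains. These genes were listed by name and not by a cut on a measured value, though with earlier results of these data known. Their unique molecular identifiers (UMIs, one per captured RNA molecule) were followed in single cells from the angle between iris and cornea and from the limbus, the ring of tissue that holds the trabecular meshwork and Schlemm's canal. Mice aged 6 weeks were compared, *Angpt1* flox/flox controls in 2 libraries (control replicates 1 and 2) and *Angpt1* flox/flox;Wnt1Cre+ mice, called *Angpt1*ΔNC, in 1 library. Both groups thus carried the floxed *Angpt1* alleles on a mixed strain, bred for 2 generations to ICR mice, and each library pooled the eyes of 2 to 3 animals. Cre under *Wnt1* control acts in the neural crest lineage, from which the stroma and mural cells of this region derive in large part; its endothelium, leukocytes and surface epithelium have other origins. Per the methods the tissue was dissociated with collagenase A and trypsin. The library is therefore the replicate, and *Angpt1*ΔNC has a single one.

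Integrins are cell surface receptors made of one alpha and one beta chain, and they tie the cell's cytoskeleton to the matrix around it or to other cells. Laminins are trimers of an alpha, a beta and a gamma chain that form the sheet to which the other parts of a basement membrane attach. In the outflow pathway, basement membranes lie under the endothelium of Schlemm's canal and of blood vessels, around trabecular beams, pericytes and muscle cells, and beneath the surface epithelium.

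The kept cells numbered 9076 and 10160 in control replicates 1 and 2 and 6772 in *Angpt1*ΔNC, at medians of 6329.5, 6393.5 and 7444 UMIs per cell. *Angpt1*, the targeted gene, gave 2911, 3158 and 26 UMIs in these libraries. Although the labels describe pools of both sexes, *Xist* gave 3 and 2 UMIs in the controls and 43346 in *Angpt1*ΔNC, so the pools differed in sex. The calls of members in each class were also computed on male-typed cells alone, of which *Angpt1*ΔNC had 62 in the endothelium, 595 in the stroma and 110 in the mural class; the values by label, the interaction and the partner genes were not. Between 13 and 25 cell barcodes were shared by any pair of libraries. Levels are means over kept cells of UMIs per 10,000 in the cell, for each of the 35 deposited cluster labels. The label LEC, with 3 and 1 control cells, was left out of them, which leaves 34. Sums over marker genes are instead from summed UMIs, per 10,000 of all UMIs in the label or class.

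Of the 35 genes, 29 reached a level of 0.5 UMIs per 10,000 in both controls in at least 1 label. The other 6 stayed lower, the highest mean of the controls in any label being 0.389 for *Itga11* and 0.257 for *Itgb3*, followed by 0.226 for *Itga2b*, 0.150 for *Itgae*, 0.0784 for *Itga10* and 0.0310 for *Lama1*. The controls were close to each other. Among 236 pairs of a gene and a label at a mean of 0.5 or more, 215 differed by at most 1.5-fold, and the median difference was 1.15-fold. For 22 of the 35 genes both controls had their highest level in the same label. Because the labels were made by clustering these same cells, levels are compared between labels as a description, with no test.

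*Itgb1*, the beta chain that pairs with the largest number of alpha chains, was the only member at 0.5 or more in both controls in all 34 labels. Its level was highest in cluster 19, where smooth muscle markers (*Myh11*, *Acta2*, *Cnn1*, *Des*) were highest, at 9.27 and 9.22 in the controls and 6.29 in *Angpt1*ΔNC. Cluster 21, also rich in these markers, followed with 8.71, 8.32 and 6.14, and cluster 20, in which the pericyte markers *Rgs5*, *Kcnj8*, *Abcc9* and *Higd1b* were highest, with 7.57, 6.89 and 5.62. In each of these 3 mural clusters both controls lay above *Angpt1*ΔNC. The vitronectin receptor alpha chain *Itgav* was the next most widespread, at 0.5 or more in both controls in 27 labels, with its highest mean in cluster 18 (2.84, 3.11 and 2.36 in control replicates 1 and 2 and *Angpt1*ΔNC) and close values in TM9 (2.62, 2.90 and 2.64).

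The collagen-binding alpha chains differed in where they were found. *Itga1* was highest in cluster 20 (2.44 and 2.70 in the controls, 3.29 in *Angpt1*ΔNC) and in cluster 10, in which Schwann cell and glial markers were highest (2.43, 2.59 and 2.52), and these neighbours in the order overlapped. It stood at 1.49 and 1.67 in cluster 21 but at 0.583 and 0.566 in cluster 19. *Itga2* was highest in epithelial cluster 5 (0.797, 0.961 and 0.916) and then in cluster 13 (0.703, 0.530 and 0.304), a cluster rich in fibroblast markers. *Itga11*, below the naming limit, had its highest level in TM1 (0.483, 0.295 and 0.397).

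Among the alpha chains that bind laminin, *Itga6* was highest in epithelium and was also found in endothelium and glia. In the limbal and corneal epithelium it reached 4.16, 3.79 and 3.69 in cluster 4 and 4.36, 3.41 and 3.53 in cluster 5. Endothelium came next outside the epithelium, with 2.09, 2.30 and 1.83 in Schlemm's canal cells (SC) and 2.04, 1.68 and 3.50 in the blood endothelial label EC2. Glial cluster 10, at 1.05, 1.37 and 1.00, overlapped in the controls with EC3 and EC4. *Itga3* was highest in EC3 (1.03, 1.16 and 0.926), and *Itga7*, the laminin receptor chain known from muscle, in cluster 21 (0.517, 0.647 and 0.672). The order of *Itga7* ran on to clusters 19 (0.421, 0.293 and 0.122) and 20 (0.324, 0.350 and 0.505), which overlapped in the controls.

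*Itga8* and *Itga5* belong, like *Itgav*, to the alpha chains that recognise the RGD motif of fibronectin and related proteins. *Itga8*, known from contractile cells, was highest in cluster 19 at 2.91 in each control and 1.76 in *Angpt1*ΔNC, and next in TM9 (0.861, 1.28 and 0.622), well apart. *Itga5*, the fibronectin receptor chain, had no single leading label: EC2 (1.18, 1.32 and 1.35), cluster 17 (1.11, 1.35 and 0.745), TM10 (1.31, 1.05 and 0.845) and cluster 18 (1.40, 0.840 and 1.43) overlapped. *Itga9*, a chain outside that group that is needed in lymphatic valves, was highest in cluster 8, in which melanocyte markers were highest (1.11, 1.03 and 1.16), and then in SC (1.02, 0.613 and 0.216), whose controls overlapped with melanocyte cluster 9 (0.703, 0.723 and 0.843). From summed UMIs in place of the mean over cells SC led instead, at 1.54 and 0.971 in the controls against 1.1 and 1.04 in cluster 8. *Itga9* in blood endothelium was lower than in SC, at 0.394 and 0.430 in EC3 of the controls.

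The leukocyte integrins sat in the leukocyte clusters. *Itgb2*, the shared beta chain, was highest in cluster 23, where the dendritic cell markers were highest (2.55, 2.95 and 1.92), and then in cluster 24, rich in myeloid markers (1.58, 1.37 and 1.12). Its partners *Itgal* (1.62, 1.27 and 1.18), *Itgam* (0.965, 1.34 and 0.666) and *Itgax* (0.979, 1.06 and 0.628) also led in cluster 23. The chains *Itga4* and *Itgb7*, which pair in the receptor that homes leukocytes to mucosa, had levels of 0.883 and 0.907, and of 1.22 and 1.48, in the controls of cluster 23. Cluster 22, in which T and B cell markers were highest, gave 0.714 and 0.989 for *Itga4* and 1.31 and 1.03 for *Itgb7*, so the clusters overlapped for both. One value stood apart: in cluster 3, an epithelial cluster with the highest conjunctival keratins, *Itgam* was at 0.619 and 0.0508 in the controls and 0.259 in *Angpt1*ΔNC. These levels came from 180, 10 and 74 UMIs, in 24 of 98, 8 of 100 and 33 of 192 cells. *Itgb2*, the beta chain that pairs with *Itgam*, was at 0 in cluster 3 of both controls and 0.00126 in *Angpt1*ΔNC, and the 4 myeloid markers summed to 1.15%, 0.202% and 0.614% of their level in cluster 23.

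Among the remaining beta chains, *Itgb4*, which builds hemidesmosomes with *Itga6*, was highest in epithelial cluster 5 (1.34, 1.25 and 1.34). Outside the epithelium it reached 0.746, 0.653 and 0.823 in glial cluster 10 and 0.283, 0.255 and 0.292 in SC. As a share of the level in clusters 4 and 5, *Itgb4* in SC was 22.3%, 21.8% and 25.5%, while *Lama3* was at 0 in all 3 libraries. The surface epithelial markers (*Krt5*, *Krt14*, *Krt12*, *Epcam*) in the same cells were at 0.284%, 0.156% and 0.197%, from summed UMIs in place of the mean over cells. In EC2 to EC4 the corresponding shares of *Itgb4* were lower, at 3.64%, 4.64% and 7.61%. *Itgb6*, a beta chain of epithelia, was similar in clusters 3 (0.936, 0.940 and 1.05), 2 (0.962, 0.615 and 1.43), 5 (0.702, 0.733 and 1.25) and 4 (0.880, 0.516 and 0.951). *Itgb8*, which with *Itgav* activates latent TGF-beta, was highest in cluster 1, the retinal pigment epithelium by its markers, at 7.88, 4.95 and 3.31, followed by cluster 10 at 1.41, 1.52 and 0.527. The *Angpt1*ΔNC value in cluster 1 rests on 17 cells. *Itgb5*, another partner of *Itgav*, had its highest means of the controls in TM5 (2.02, 2.45 and 2.76) and TM1 (2.16, 2.02 and 2.32), which overlapped. Myeloid cluster 25 came next by that mean, and in control replicate 1 it was the highest label.

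The laminin alpha chains divided the tissue between them. *Lama3* was epithelial, at 4.84, 4.21 and 4.12 in cluster 4 and at 3.93, 4.09 and 3.53 in cluster 5. *Lama2*, the chain of muscle and mesenchymal basement membranes, was highest in TM9 (2.01, 2.86 and 1.15), TM8 (2.14, 2.14 and 1.14) and TM11 (2.27, 1.58 and 1.07), and stood at 1.84, 1.64 and 0.787 in pericyte cluster 20. *Lama4*, the chain of vascular basement membranes, was highest in SC at 1.84, 1.74 and 0.774, above TM10 (1.02, 1.19 and 0.535) and above EC4, the highest of the blood endothelial labels (0.869, 0.759 and 0.693). The SC value of *Angpt1*ΔNC comes from 15 cells, in which the markers *Prox1*, *Ccl21a* and *Tek* summed to 11.9 UMIs per 10,000, against 85.9 and 53.1 in the controls. *Lama5*, the other chain of vessel walls, was highest in cluster 21 (0.756, 0.814 and 0.702) and next in EC4 (0.606, 0.678 and 0.314).

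Among the beta and gamma chains, *Lamb3*, a partner of *Lama3*, was highest in cluster 4 (1.56, 1.52 and 1.54), and T and B cell cluster 22 gave 0.315, 0.788 and 0.456. *Lamb1* led in cluster 18 (2.38, 2.33 and 1.59), a cluster rich in fibroblast markers. *Lamb2* spread over 21 labels at 0.5 or more in both controls, with cluster 21 (2.07, 2.87 and 1.84), TM10 (1.94, 2.79 and 1.92) and TM4 (1.97, 2.1 and 2.47) overlapping at the top. *Lamc1*, the common gamma chain, reached 0.5 in both controls in 16 labels. *Lamc3*, the less common gamma chain, was restricted to pericyte cluster 20 (1.78, 1.86 and 0.334) and the stromal labels TM8 (1.60, 1.68 and 1.25), TM9 (1.37, 1.59 and 0.804) and TM6 (1.46, 1.30 and 0.435), the only labels where it reached 0.5 in both controls.

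Known partners were also compared across the 34 labels by Pearson's r of log2(level + 0.1), a description in which all points share a library. *Lama3* and *Lamb3* gave r of 0.872 and 0.754 in control replicates 1 and 2. *Itga6* and *Itgb4* gave 0.793 and 0.858, *Itgax* and *Itgb2* 0.874 and 0.833, *Itga4* and *Itgb7* 0.763 and 0.837, and *Lama4* and *Lamc1* 0.828 and 0.814. Over all 595 pairs of members the median r was -0.07 and -0.08. *Itgal* and *Itgb2* gave 0.72 and 0.81, *Itgam* and *Itgb2* 0.71 and 0.86, and *Itgae*, a gene of low level, and *Itgb7* 0.94 and 0.68. *Itga1* and *Itgb1* gave 0.69 and 0.70, *Lama2* and *Lamb2* 0.68 and 0.66, and *Lama2* and *Lamc1* 0.65 and 0.61. Some known partners gave lower values. *Itgav*, whose product accepts several beta chains, gave 0.188 and 0.288 with *Itgb5*, 0.260 and 0.285 with *Itgb8* and -0.52 and -0.41 with *Itgb6*. *Itga6* and *Itgb1*, the pair found outside hemidesmosomes, gave 0.171 and 0.191, *Itga5* and *Itgb1* 0.356 and 0.428, *Lama5* and *Lamb2* 0.181 and 0.174, and *Lama5* and *Lamc1* 0.324 and 0.323.

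Promoter sequences from RefSeq (build GRCm38.p6) were matched by symbol to 23 of the 35 genes. The 250 bases before the start are shown for *Itgb1*, found in every label, for the leukocyte chain *Itgax*, and for *Itga5*, *Itga1* and *Lama2*, whose differences between genotypes are given below. Itgb1 lies at chr8:128685404-128685653 (plus strand), Itgax at chr7:128129300-128129549 (plus), Itga5 at chr15:103366792-103367041 (minus), Itga1 at chr13:115101965-115102214 (minus) and Lama2 at chr10:27616943-27617192 (minus), each printed 5′ to 3′ on the gene's strand. Capitals mark matches, on either strand, to the AP-1 motif, spelled TGANTCA with N for any base. They also mark the GC box, spelled GGGCGG, which binds factors of the Sp family. The TATA box was searched on both strands too.
Itgb1: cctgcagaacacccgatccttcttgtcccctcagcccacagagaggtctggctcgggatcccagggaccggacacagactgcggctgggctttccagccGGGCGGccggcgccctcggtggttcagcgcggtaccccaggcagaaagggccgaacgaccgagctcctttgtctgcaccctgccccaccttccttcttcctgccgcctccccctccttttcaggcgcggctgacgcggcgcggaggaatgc
Itgax: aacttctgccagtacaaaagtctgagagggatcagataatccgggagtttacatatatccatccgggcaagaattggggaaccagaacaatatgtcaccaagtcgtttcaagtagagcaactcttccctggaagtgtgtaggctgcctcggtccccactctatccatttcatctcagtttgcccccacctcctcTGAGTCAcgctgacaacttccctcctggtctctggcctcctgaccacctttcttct
Itga5: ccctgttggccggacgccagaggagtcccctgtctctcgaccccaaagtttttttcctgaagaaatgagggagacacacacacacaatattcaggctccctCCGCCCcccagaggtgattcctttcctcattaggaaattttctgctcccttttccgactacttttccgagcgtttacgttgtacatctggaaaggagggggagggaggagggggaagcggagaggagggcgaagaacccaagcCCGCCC
Itga1: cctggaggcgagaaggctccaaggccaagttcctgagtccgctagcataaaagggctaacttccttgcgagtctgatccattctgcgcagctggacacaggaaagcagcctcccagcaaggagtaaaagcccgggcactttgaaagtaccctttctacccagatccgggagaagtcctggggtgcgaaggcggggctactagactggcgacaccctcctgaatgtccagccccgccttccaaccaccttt
Lama2: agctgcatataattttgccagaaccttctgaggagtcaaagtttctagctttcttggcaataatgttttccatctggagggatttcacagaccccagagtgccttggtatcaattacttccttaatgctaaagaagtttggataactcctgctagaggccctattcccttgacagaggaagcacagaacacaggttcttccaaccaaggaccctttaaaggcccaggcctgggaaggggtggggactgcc
The GC box was held by 8 of the 23 member promoters and by 32.9% of 27025 promoters, the AP-1 motif by 1 (*Itgax*) and 6.87%, and the TATA box, searched as TATAAA, by 0 and 13%. Of those shown, *Itgb1* had 1 GC box, *Itga5* had 2 and *Itgax* had 1 AP-1 match, while *Itga1* and *Lama2* had no match to these letters. The *Lama2* window starts inside the longer gene model of GENCODE M21, whose end on the plus strand is at 27619758.

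In GENCODE M21 (build GRCm38) the main genes of the genotype comparison lie at chr13:114953096-115101964 (*Itga1*), chr2:71745616-71858416 (*Itga6*), chr9:118606690-118901003 (*Itga9*), chr2:12106632-12301922 (*Itga8*), chr10:26980036-27619758 (*Lama2*), chr10:38965515-39110188 (*Lama4*) and chr2:31887291-31946539 (*Lamc3*), and *Itga8*, *Lama2* and *Lamc3* have an antisense gene over their exons. The effect of *Angpt1* deletion was examined in 5 classes of cells, with the counts of each class summed per library and tested with edgeR. With 1 residual degree of freedom, the fit takes the lone *Angpt1*ΔNC library to vary like the controls. A gene was called at a Benjamini-Hochberg adjusted p under 0.05 over all genes tested, and log2 fold changes are *Angpt1*ΔNC over control, with standard errors (SE). CPM, the unit of the summed counts below, is the usual scaling of a gene's UMIs to the total of its library.

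In the endothelium (SC and EC2 to EC4; 292, 326 and 197 cells), 5 integrin chains were higher in *Angpt1*ΔNC and 1 was lower, of 17 members that passed the filter on low counts, and no laminin chain was called. Over all 9731 genes tested 10.9% were called. *Itga1*, a collagen receptor chain, stood at 46.1 and 43.3 CPM in the controls and 129 in *Angpt1*ΔNC, a log2 fold change of 1.53 (SE 0.175, adjusted p = 6.75e-05). *Itga6*, a laminin receptor chain, gave 144, 153 and 264 CPM (0.83, SE 0.150, adjusted p = 0.00254). In both genes the control libraries lay close together and *Angpt1*ΔNC lay far outside them. *Itgb3*, a beta chain of the vitronectin receptor, was low, at 16.9, 8.22 and 35.7 CPM (1.54, SE 0.347, adjusted p = 0.0114), with controls that themselves differed by more than 1.5-fold; its log2 fold change was 2.01 without control replicate 1 and 1.04 without control replicate 2. *Itga5*, the fibronectin receptor chain, gave 64.1, 79.4 and 118 CPM (0.71, SE 0.185, adjusted p = 0.0239), and *Itgav* 87.7, 97.4 and 138 CPM (0.57, SE 0.167, adjusted p = 0.0425). *Itga9* was the only member that fell, from 55.5 and 46.2 CPM to 16.2 (-1.64, SE 0.277, adjusted p = 0.00164). *Itgb1*, a partner of the alpha chains above, was at 471, 481 and 358 CPM (-0.41, adjusted p = 0.110) and was not called.

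By label, the rise of *Itga1* was seen in EC2 (0.359 and 0.270 UMIs per 10,000 in the controls, 0.663 in *Angpt1*ΔNC) and EC4 (0.889, 0.746 and 1.90), while EC3 differed by little (0.296, 0.321 and 0.337) and SC lay below both controls (0.174, 0.269 and 0.10). *Itga6* was above both controls in EC2 (2.04, 1.68 and 3.50), EC3 (1.05, 1.19 and 1.62) and EC4 (1.12, 1.45 and 2.45), and below them in SC (2.09, 2.30 and 1.83). *Itga9* was below both controls in all 4 labels, most in SC (1.02, 0.613 and 0.216) and EC3 (0.394, 0.430 and 0.0571). Its UMIs in SC were 85, 66 and 5. The SC values of *Angpt1*ΔNC rest on 15 cells, in which the sum of *Prox1*, *Ccl21a* and *Tek* was also below both controls. *Itgb3* rested on EC4 (0.335, 0.0986 and 0.553), with 23, 12 and 47 UMIs. Across EC2 to EC4, *Itga1*, *Itga5* and *Itga6* were above both controls in every label, as were 6.35% of all genes tested, and *Itga9* and *Itgb1* were below both in every label, as were 15.3%.

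**Figure D1:**
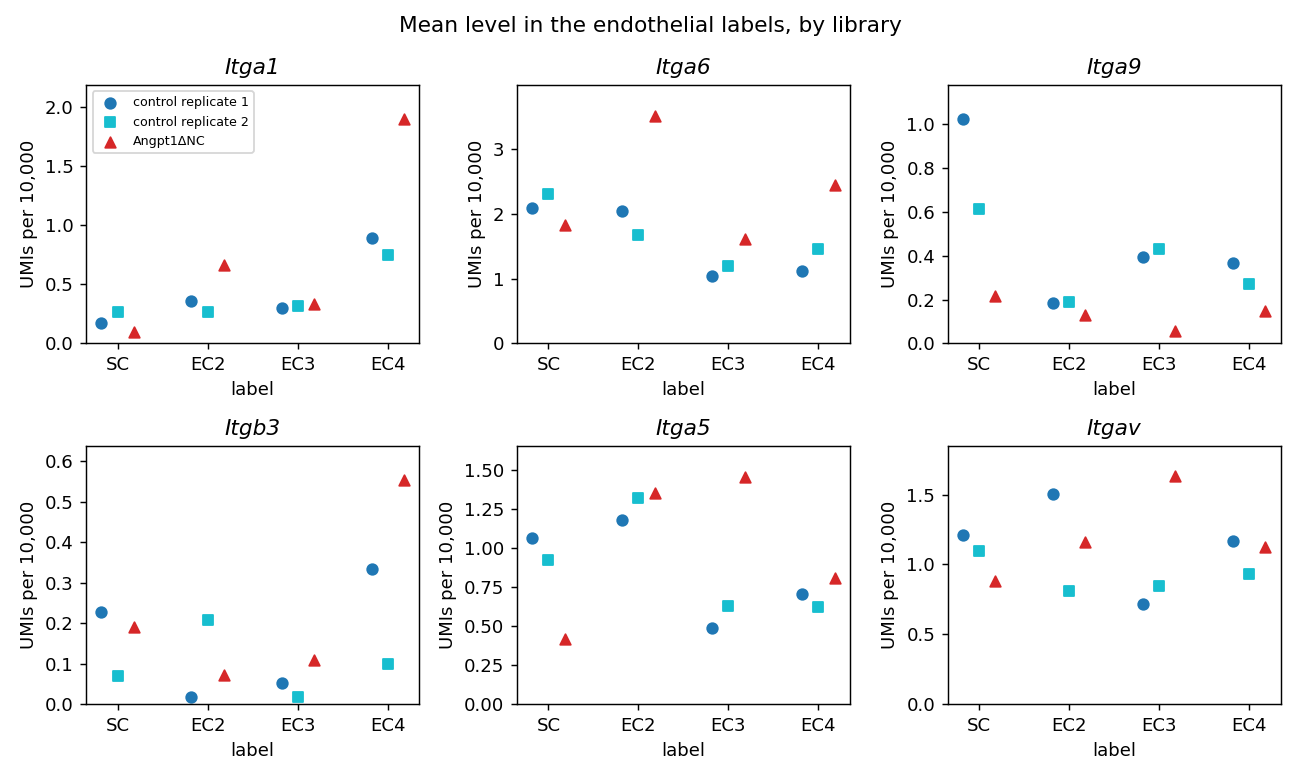
Mean level (UMIs per 10,000, linear axis from 0) of the 6 integrin chains called in the endothelium, in SC and EC2 to EC4, with 1 point per library. *Itga6* of *Angpt1*ΔNC is above both controls in EC2 to EC4 and below them in SC, and *Itga9* is below both controls in all 4 labels. The SC points of *Angpt1*ΔNC rest on 15 cells.

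The makeup of the endothelial class moved with genotype. SC cells were 15.8% and 19.3% of it in the controls and 7.61% in *Angpt1*ΔNC, and EC4, where *Itga1* was highest, was 32.9%, 32.8% and 44.2%. With EC2 to EC4 alone the same 6 of 17 members were called, as were 887 of 9280 genes. With the labels weighted to equal shares *Itga1* (1.00), *Itga6*, *Itga9* and *Itga5* were called, while *Itgb3* (log2 fold change 1.09, adjusted p = 0.0583) and *Itgav* (0.54, adjusted p = 0.0563) missed the threshold. In male-typed cells *Itga5* (0.54, adjusted p = 0.153) and *Itgav* (0.60, adjusted p = 0.0614) were not called, and *Itga1* was at 2.18. *Itga9* in male-typed cells was at -1.05 (adjusted p = 0.0402), and the laminin chain *Lamb1* was called there (0.95, adjusted p = 0.00345), against 0.41 (adjusted p = 0.290) in all cells. DESeq2 called *Itga1*, *Itga6* and *Itga9* only. The 4 pericyte markers summed to 1.58, 0.876 and 0.585 UMIs per 10,000 in the endothelium, and their part in these results was not tested.

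In the stroma (TM1 to TM11; 2803, 3324 and 1946 cells), 3 laminin chains fell, of 31 members that passed the filter, and no integrin chain was called. Of all 13942 genes tested 8.97% were called. *Lama4* went from 51.2 and 54.6 CPM in the controls to 30.0 in *Angpt1*ΔNC (-0.82, SE 0.145, adjusted p = 0.0116). *Lamc3* went from 37.2 and 44.5 to 22.3 CPM (-0.88, SE 0.165, adjusted p = 0.0150), and *Lama2* from 111 and 124 to 69.0 CPM (-0.76, SE 0.157, adjusted p = 0.0213). For each of these chains *Angpt1*ΔNC lay below both controls by more than the controls differed. With no filter on low counts 2441 of 19901 genes and 6 of 35 members were called. The integrin chains *Itga8* (-0.68, adjusted p = 0.000929), *Itga4* (-2.11, adjusted p = 0.0311) and *Itga2b* (0.61, adjusted p = 0.0363) were then called as well. The other laminin chains of the stroma did not pass the test, *Lamc1* giving 64.1, 71.1 and 63.1 CPM (-0.10), *Lamb1* 35.9, 41.7 and 40.5 (0.06) and *Lamb2* 136, 170 and 163 (0.09).

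*Lama2* was lower in *Angpt1*ΔNC than in both controls in all 11 TM labels, as were 0.897% of the genes tested, and *Itgb1* shared this pattern. In TM9 *Lama2* stood at 2.01, 2.86 and 1.15, in TM7 at 1.22, 1.48 and 0.835, and in TM4 the gap was small, at 0.581, 0.496 and 0.448. *Lama4* was below both controls in 9 of the 11 labels, for example in TM4 (0.782, 0.599 and 0.325) and TM7 (0.704, 0.708 and 0.304), and above both in TM11 (0.50, 0.304 and 0.810). *Lamc3* was below both in 4 labels and above both in 4, and the labels in which it was abundant, TM6, TM8 and TM9, were all lower. *Itgb1* in the stroma as a whole was at 364, 375 and 285 CPM and was not called (-0.38, adjusted p = 0.145). No member was above both controls in every TM label, as 1% of the genes were.

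**Figure D2:**
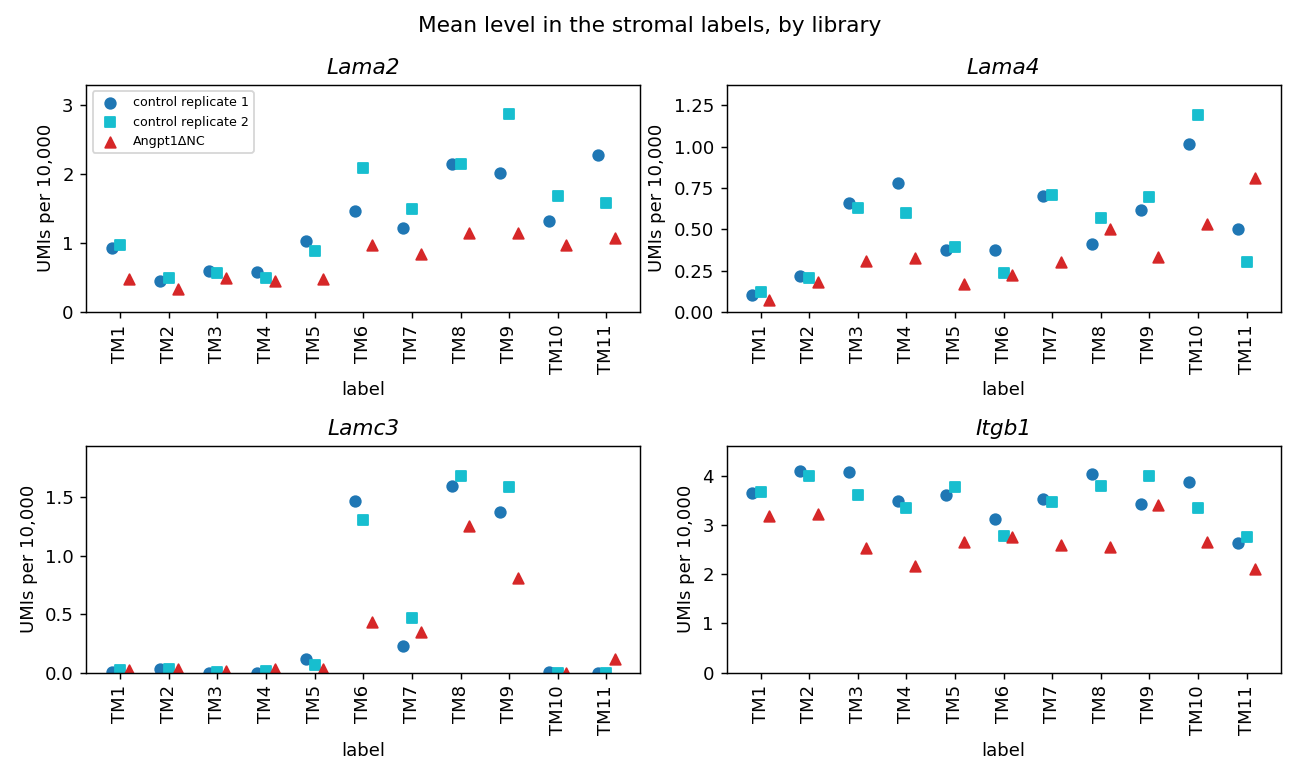
Mean level (UMIs per 10,000, linear axes from 0) of *Lama2*, *Lama4*, *Lamc3* and *Itgb1* in TM1 to TM11, with 1 point per library. The *Angpt1*ΔNC point of *Lama2* and of *Itgb1* lies below both control points in all 11 labels, by 1.15 against 2.01 and 2.86 for *Lama2* in TM9.

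The stroma also changed in makeup. TM8, rich in *Lama2* and *Lamc3*, was 21.1% and 18.4% of stromal cells in the controls and 8.0% in *Angpt1*ΔNC, and TM9 was 7.28%, 8.97% and 16.8%. With the labels at equal shares *Lama4* (-0.81, adjusted p = 0.00972) and *Lama2* (-0.71, adjusted p = 0.0256) were called and *Lamc3* was not (-0.52, adjusted p = 0.0845). In male-typed cells all 3 were called, *Lamc3* at -1.80. In the stromal class pericyte markers summed to 4.36, 3.29 and 0.511 UMIs per 10,000, trabecular meshwork markers to 33.2, 39.9 and 19.5 and fibroblast markers to 163, 176 and 254, and their part in these differences was not tested.

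In the mural cells (clusters 19 to 21; 1036, 1185 and 345 cells), 3 members were lower and 3 higher, of 24 that passed the filter. Of all 11606 genes tested 16.4% were called. *Itga8*, the chain highest in cluster 19, fell from 138 and 148 to 47.1 CPM (-1.60, SE 0.191, adjusted p = 2.12e-05). *Lamc3* fell from 68.4 and 67.9 to 20.3 CPM (-1.75, SE 0.230, adjusted p = 6.28e-05), and *Itga3* from 22.7 and 27.9 to 9.82 CPM (-1.37, SE 0.334, adjusted p = 0.00915). *Itga1* rose from 146 in each control to 281 CPM (0.94, SE 0.142, adjusted p = 0.000209), *Itga5* from 43.3 and 47.0 to 67.4 CPM (0.58, SE 0.184, adjusted p = 0.0410), and *Lamc1* from 98.2 and 96.6 to 136 CPM (0.48, SE 0.158, adjusted p = 0.0448). Of these members DESeq2 called *Itga8*, *Lamc3* and *Itga1* only. With no filter on low counts, edgeR did not call *Itga5* (adjusted p = 0.0671) or *Lamc1* (adjusted p = 0.0860).

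The mural class, however, held fewer cells of cluster 19 in *Angpt1*ΔNC, 15.7% against 37.4% and 42.1%, and more of cluster 20, 64.3% against 44.5% and 43.2%. The smooth muscle markers summed to 58.9 UMIs per 10,000 in the class against 110 and 103 in the controls; within cluster 19 they were at 178, 158 and 151 and within cluster 21 at 143, 146 and 79.9. The part of these shifts in the results was not tested beyond the values at equal shares. At equal shares of the clusters, *Itga1* (0.43, adjusted p = 0.0833), *Itga3* (-0.58, adjusted p = 0.233) and *Lamc1* (0.26, adjusted p = 0.312) were not called, and *Lama2* was (-0.83, adjusted p = 0.0127). *Itga8* was then at -0.72 (adjusted p = 0.0187), against -3.46 in male-typed cells, and its level within cluster 19 was 2.91, 2.91 and 1.76. *Itga5* was at 1.07 at equal shares (adjusted p = 0.00141), with 0.758, 0.717 and 1.80 in cluster 19, but in male-typed cells it was at -0.013 (adjusted p = 0.986). *Itga3* was at -3.50 in male-typed cells, and *Itga9* was called there (-2.17, adjusted p = 0.00927). *Lamc3* in pericyte cluster 20 went from 359 and 439 UMIs in the controls to 31, and in that cluster alone it was at -2.46 (adjusted p = 5.42e-06). *Lama2* (-1.10, adjusted p = 0.00203) and *Itgb5* (-1.04, adjusted p = 0.0155) were also lower in cluster 20 alone, a fit chosen after the data had been seen. Across clusters 19, 20 and 21, *Itga3*, *Itgb1* and *Lamc3* were below both controls in every cluster, as were 15.2% of all genes tested, and *Itga1* was above both in every cluster, as were 7.98%.

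**Figure D3:**
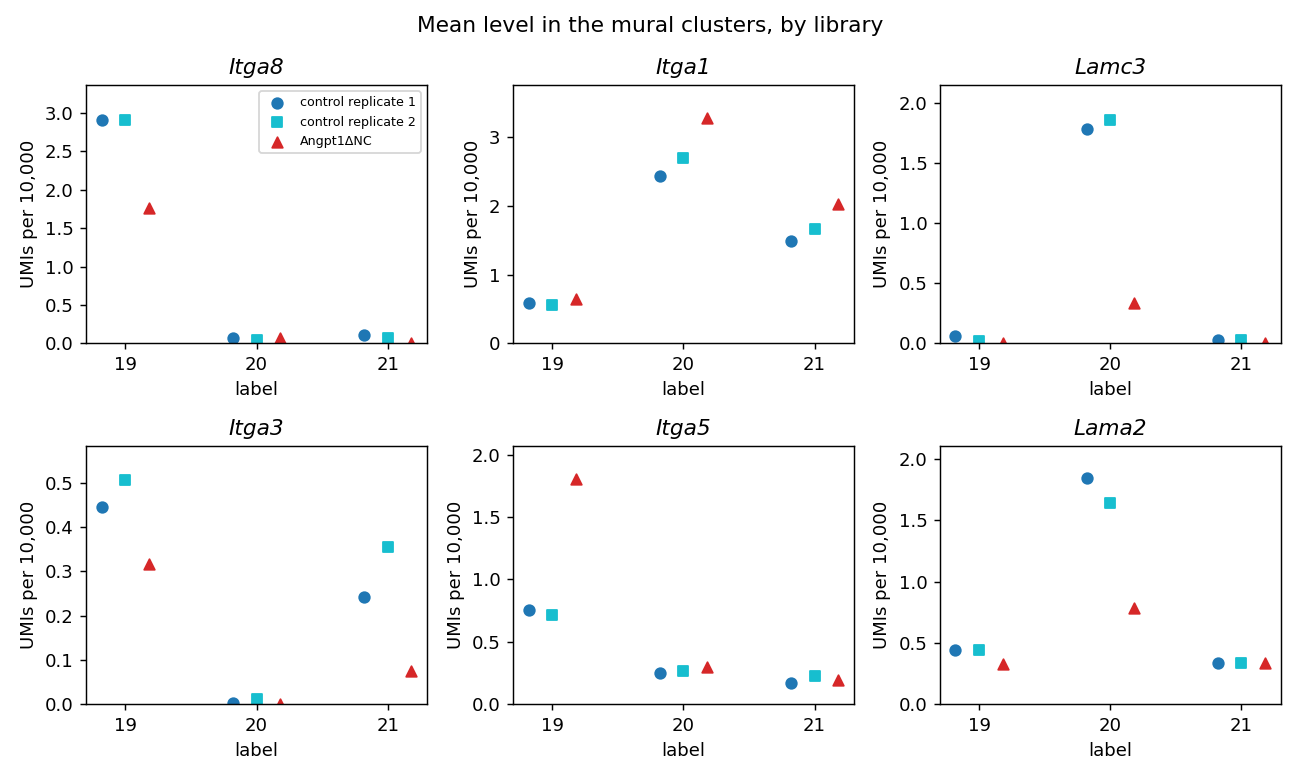
Mean level (UMIs per 10,000, linear axes from 0) of 6 members in clusters 19, 20 and 21, with 1 point per library. *Lamc3* in cluster 20 stands at 1.78 and 1.86 in the controls and 0.334 in *Angpt1*ΔNC, and *Itga8* in cluster 19 at 2.91, 2.91 and 1.76.

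In the limbal and corneal epithelium (clusters 4 and 5), 2 of the 21 members that passed the filter were called, both higher in *Angpt1*ΔNC. Of all 12341 genes tested 5.72% were called. *Itgb6* rose from 68.8 and 67.5 to 116 CPM (0.76, SE 0.147, adjusted p = 0.0257) and *Itga5* from 8.45 and 15.1 to 28.3 CPM (1.27, SE 0.297, adjusted p = 0.0470), the latter at 0.90 without control replicate 1 and 1.73 without control replicate 2. *Lamb1*, at 16.4, 14.5 and 8.34 CPM (-0.89, adjusted p = 0.0531), and *Lamb2*, at 5.04, 7.67 and 13.3 CPM (1.075, adjusted p = 0.0586), missed the threshold. Both were called with RLE size factors and with no filter on low counts, where *Lamb3* was called as well. The members that define this tissue differed by less than the test could call, *Lama3* being at 363, 389 and 397 CPM, *Itga6* at 379, 346 and 354, and *Itgb4* at 108, 114 and 114. *Itgb6* in male-typed cells (0.54, adjusted p = 0.0862) and *Itga5* at equal shares of the clusters (0.86, adjusted p = 0.0615) were not called, while *Itga2* was called at equal shares (0.54, adjusted p = 0.0435); cluster 4 made up 41.9%, 50.1% and 70.4% of the class.

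In the myeloid cells (clusters 23 to 25), 0 of 17 members were called, against 5.53% of 9883 genes tested. Unadjusted, 4 of the 17 members had p under 0.05 in edgeR, as had 1765 of the 9883 genes. DESeq2 called 0 members. *Itga3* (2.49, 1.18 and 0.554 CPM, -1.62), *Lamb2* (6.24, 3.69 and 2.22 CPM, -1.11), *Itga1* (0.249, 3.02 and 3.33 CPM, 0.87), *Itgae* (4.99, 1.18 and 4.71 CPM, 0.72) and *Itgb7* (19.2, 32.1 and 40.2 CPM, 0.62) had the largest fold changes, and all but *Itgb7* were low. *Itgb2*, the main beta chain of these cells, was at 163, 140 and 123 CPM (-0.30).

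**Figure D4:**
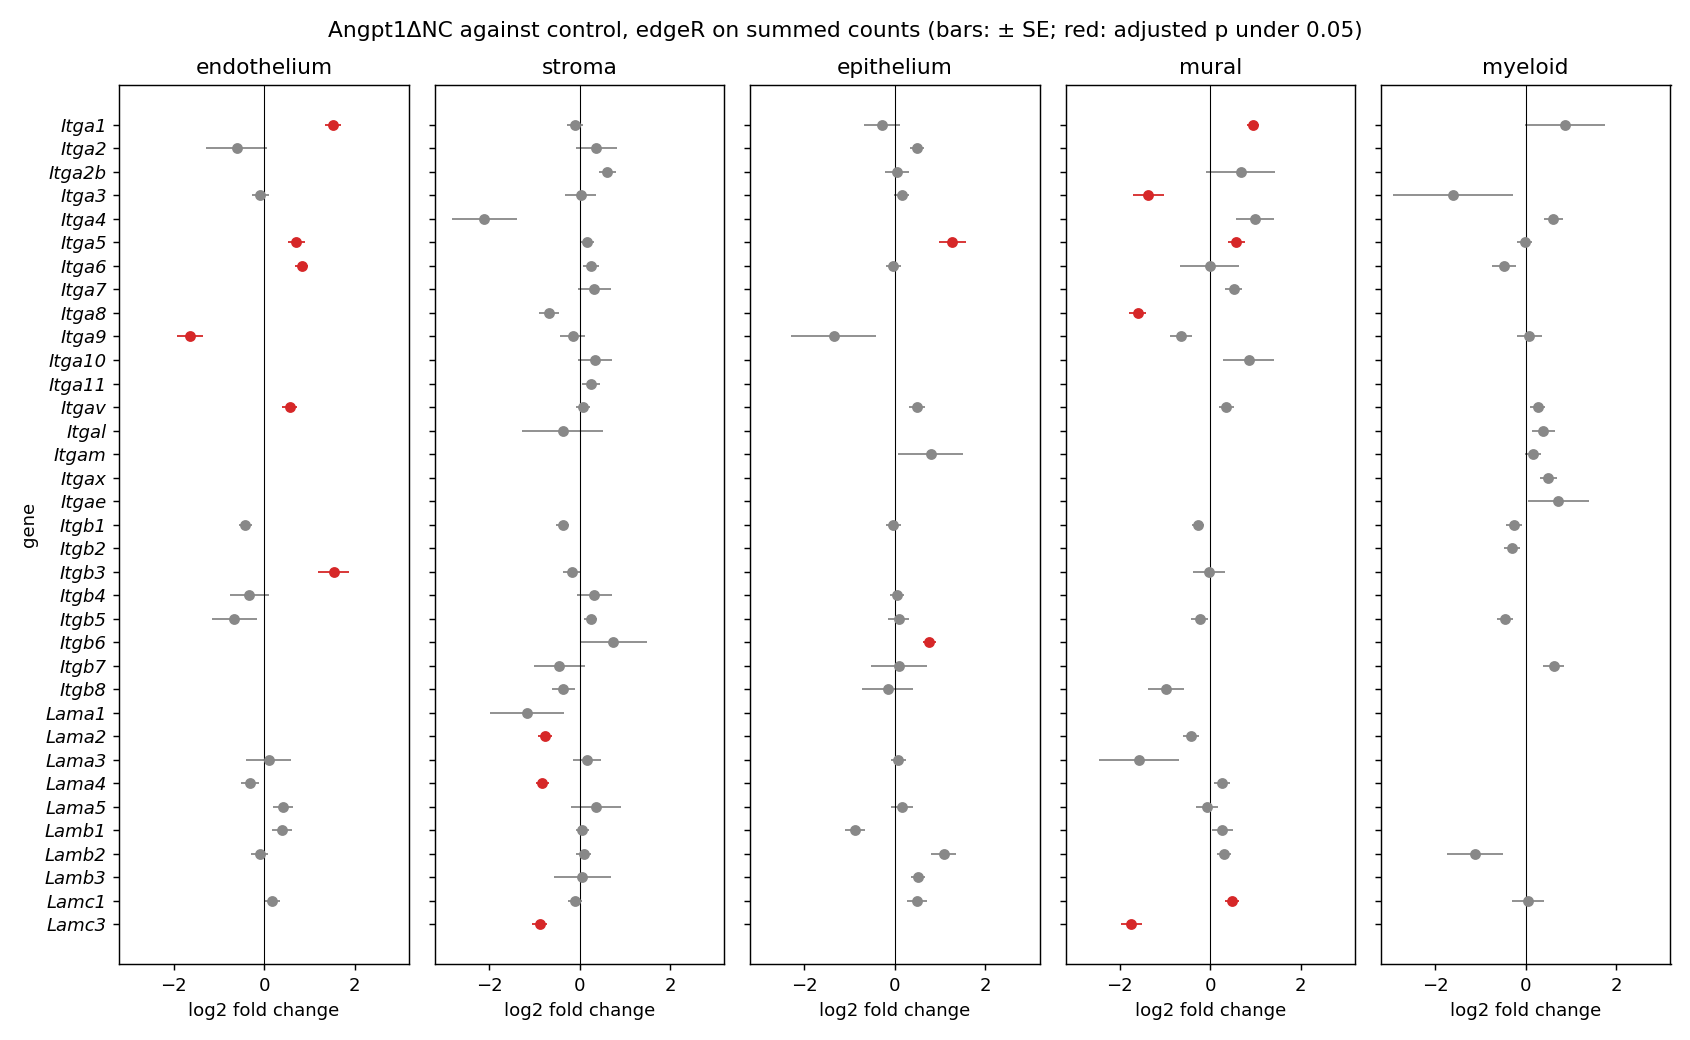
Log2 fold change of *Angpt1*ΔNC over control for each member (rows) in 5 classes (panels), with bars of ± SE and red points at an adjusted p under 0.05. Members that did not pass the filter have no point, and *Lama1* in the mural class, at -5.92 with no UMI in *Angpt1*ΔNC, is off the axis. *Itga1* is red in the endothelium and in mural cells and near 0 in the stroma.

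Whether a member differed between endothelium and stroma in its response was tested with an interaction term, the library being a term of the fit. Of 23 members tested 2 were called, against 8.7% of 9560 genes. The log2 fold change of *Itga1* was larger in the endothelium by 1.65 (adjusted p = 0.000717) and that of *Itgb3* by 1.74 (adjusted p = 0.0176). The differences of *Itga6* (0.59, adjusted p = 0.0653), *Itga9* (-1.49, adjusted p = 0.0849) and *Lama2* (0.13, adjusted p = 0.983) were not called.

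The genes that work beside these chains were followed in 4 lists. The lists were chosen with earlier results of these data known, so their counts and medians are a description and not a test. Of 14 basement membrane partners, 11 were tested in the endothelium, where 4 rose and none fell: the collagen IV chains *Col4a2* (323, 342 and 633 CPM, 0.93, adjusted p = 0.000935) and *Col4a1* (0.94), *Col18a1* (0.79) and the heparan sulfate proteoglycan *Hspg2* (0.64). The list had a median of 0.64 there, against -0.02 for all genes tested, and against 0.13 in the stroma, where 0 of 14 were called. In the mural cells 3 of 14 rose, *Sdc1* (1.19), *Col4a2* (1.11) and *Col4a1* (0.82), and *Nid1*, which links laminin to collagen IV, fell from 186 and 278 to 111 CPM (-1.06, adjusted p = 0.00253). In the epithelium 1 of 11 rose (*Col18a1*, 0.94) and in the myeloid cells 0 of 7 were called.

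Of 18 integrin ligands other than laminins, 3 rose and 3 fell among 12 tested in the endothelium, led by periostin *Postn* (52.8, 56.3 and 10.4 CPM, -2.39, adjusted p = 0.000117) and nephronectin *Npnt* (-1.78), a ligand of the *Itga8* receptor. Among them *Vcam1*, a ligand of *Itga4* and *Itga9* receptors, rose (0.69), and *Emilin1*, an *Itga9* ligand, fell (-1.41). *Npnt* and *Postn* were almost confined to SC, which made up less of the class in *Angpt1*ΔNC: of their UMIs in the class, 438, 385 and 50 for *Npnt* and 137, 176 and 15 for *Postn* were in SC, and 7, 6 and 15 and 4, 2 and 1 in EC2 to EC4. Their level within SC was 5.79, 3.90 and 2.45 for *Npnt* and 2.39, 2.28 and 0.574 for *Postn*. The SC label of *Angpt1*ΔNC held 15 cells, in which the sum of *Prox1*, *Ccl21a* and *Tek* was also below both controls. The partner genes were not tested at equal shares of the labels. In the stroma 2 rose and 3 fell of 18, with the 4 smallest adjusted p for *Edil3* (-2.28), *Vtn* (-4.01), *Spp1* (1.06) and *Icam1* (-0.70), and in the mural cells 5 rose and 5 fell of 14, led by *Spp1* (1.33), *Tnc* (2.12), *Mfge8* (0.87) and *Icam1* (-1.07). None of 14 was called in the epithelium and none of 9 in the myeloid cells.

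Of 19 cytoplasmic adaptors, 5 of 17 tested rose in the endothelium and none fell. *Zyx* (56.2, 58.5 and 124 CPM, 1.11, adjusted p = 0.000892), *Actn4* (0.98), *Parvb* (0.86) and *Actn1* (0.98), which tie integrin tails to actin, had the smallest adjusted p. In the stroma *Actn4* (0.74) and *Actn1* (0.67) rose and *Tln2* fell (-1.57), of 17. In the epithelium *Zyx* (1.02) and *Actn1* (1.31) rose and *Tln2* fell (-1.12), of 16, and in the mural cells *Ptk2* rose (0.71), of 16. No adaptor of 15 was called in the myeloid cells. The 4 hemidesmosome genes (*Col17a1*, *Dst*, *Plec*, *Cd151*) had no call in any of the 5 classes, with 3 of them tested in the endothelium and in the myeloid cells.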

How the data were processed

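Single-cell RNA of the iridocorneal angle was measured in 3 droplet libraries. Per the labels, the authors made the UMI counts with Cell Ranger on build mm10 and labelled cells with Seurat 3.1.3; the submitters' processing notes give Cell Ranger 2.1.1, while the deposited matrix headers give software 3.0.2, and the sources do not settle which was used; the deposited counts are raw, and the deposited cluster labels of the cells the authors kept were used as they are. The authors' integrated values were not used. Kept cells held 76981606, 80346829 and 66484181 UMIs in control replicates 1 and 2 and *Angpt1*ΔNC, with 1001 to 124288 UMIs per cell, which limits genes of low level. Doublets were removed by the authors before the labels were made. Groups came from the genotype in the labels. The members and the lists were chosen with earlier results of these data known.

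Levels were averaged over cells per label and library, without a test; summed UMIs, cells thinned to 2000 UMIs, and minimums of 10 and 50 in place of 20 cells per label were alternatives. Class counts were tested with edgeR 4.0.16 in R 4.3.3 (TMM, filterByExpr, quasi-likelihood F-test, adjusted p under 0.05). DESeq2 1.42.0, RLE size factors, no filter, male-typed cells (a Y-linked UMI and no *Xist*), labels at equal share and fits without one of the controls, which give a fold change but no test, were alternatives. The labels do not say whether pools shared litters. The p-values rest on the spread between the control libraries, moderated across genes, and the spread of *Angpt1*ΔNC was not measured. A member was described by level when it reached 0.5 UMIs per 10,000 in both controls in a label of 20 or more cells; in the genotype comparison every called member is named, otherwise the 5 largest fold changes, and of each list the called genes or the 4 with the smallest adjusted p. *Lama4*, *Itgb1* and others given by label or beside these were chosen after their values were seen. The edgeR fit was tested on simulated counts, with a dispersion set alike for all classes. Of genes changed by 1 log2 unit, 40% were recovered in the endothelium, 66% in the stroma and 68% in the epithelium. In the mural cells 37.8% were recovered and in the myeloid cells 42.1%. Exons of *Itga1*, *Itga10* and *Itgam* overlap another gene on the same strand in GENCODE M21 (build GRCm38), so their reads may be shared. Figures were drawn with matplotlib 3.10.9 in Python 3.11.15.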

Additional observations from a re-analysis of the deposited data

Results flagged for a closer look

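*Itga1* and *Itgb3* were singled out because their differences between genotypes themselves differed between endothelium and stroma. They were 2 of 23 members tested, a share near the 8.7% called among all 9560 genes. For *Itga1* the log2 fold change of *Angpt1*ΔNC over control was 1.53 in the endothelium and -0.10 in the stroma, a difference of 1.65 in the interaction fit. At equal shares of the endothelial labels it was 1.00. EC4, where *Itga1* was highest, made up 32.9% and 32.8% of the class in the controls and 44.2% in *Angpt1*ΔNC. In SC the level of *Itga1* was below both controls. For *Itgb3* it was 1.54 and -0.17, a difference of 1.74 in that fit, and it rests on few UMIs, 47 in EC4 of *Angpt1*ΔNC against 23 and 12 in the controls.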

How the results depend on the processing

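Fits without one of the controls, which have no test, moved the log2 fold change of *Itgb3* in the endothelium from 1.04 to 2.01 and that of *Itga5* in the epithelium from 0.90 to 1.73, and kept the sign of every member called. *Itgae* in the myeloid cells, which was not called, ran from -0.075 to 1.69. With DESeq2 the genes called numbered 297 of 9731 in the endothelium, 629 of 13942 in the stroma and 434 of 12341 in the epithelium. They were 550 of 11606 in the mural cells and 74 of 9883 in the myeloid cells. The members called were 3 of 17 in the endothelium, 3 of 31 in the stroma, 2 of 21 in the epithelium and 3 of 24 in the mural cells. Without a filter on low counts 2441 of 19901 genes and 6 of 35 members (3 of them integrin chains) were called in the stroma. In the epithelium 1814 of 18342 genes and 5 of 34 members were called without it. RLE size factors gave 4 of 21 members and 829 of 12341 genes in the epithelium. They gave 1 of 17 members and 754 of 9883 genes in the myeloid cells. In male-typed cells 465 of 12074 genes and 1 of 21 members were called in the epithelium, and 45 of 8798 genes in the myeloid cells. Equal shares gave 873 of 11610 genes and 4 of 23 members in the mural cells. Cluster 20 alone, chosen after seeing the data, gave 698 of 9105 genes and 3 of 19 members. There *Itga8* turned to 0.57 (adjusted p = 0.669), and in male-typed mural cells *Itga5* turned to -0.013. The cause was not tested. Over 22 pairs of a named member and a class (16 distinct genes), 116 values under an alternative have an adjusted p. Of them 92 kept their sign and their side of the threshold, 21 lost the call, 1 gained it and 2 turned. The pairs include 5 of the myeloid class, where the main fit called 0 members. Those could not lose a call, and the 1 gain, *Itgb7* with RLE size factors, was among them. The 21 losses and 2 turns were all in called members, so the 92 count more than calls that held. The number of members with the same leading label in both controls was 22, and ran from 17 (cells thinned to 2000 UMIs) to 22; the leading label of *Itga4*, *Itga5*, *Itga9* and *Itgav* changed with summed UMIs and that of *Itga1*, *Itga4*, *Itga5*, *Itgav*, *Lamb2* and *Lamc1* with thinned cells, and with 50 cells per label that of *Itga5* and *Lama4*. No paired analysis was possible, since *Angpt1*ΔNC has a single library and the labels do not say whether pools shared litters. Whether depth bears on the 6 members that stayed under 0.5 UMIs per 10,000 was not tested.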
